A study of Mus musculus with 4 samples.

Results

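The Notch pathway was represented by 10 genes, namely the receptors Notch1, Notch2, Notch3 and Notch4, the ligands Jag1, Jag2 and Dll1, the transcription factor gene Rbpj, and the target genes Hes1 and Hey1. They were taken by name from the 22180 genes that had a probe set, a group of array probes summarised to 1 value, annotated with exactly 1 symbol. Where a gene had several such probe sets, the brightest on average was used. Transcripts were measured on Affymetrix arrays in mammary epithelial cells from inguinal glands of 4 week-old mice on a congenic FVB/NJ background. Of the 4 arrays, 2 carried RNA of Cre-expressing MMTV-Cre+ mice and 2 carried RNA of wild-type littermates, with 1 array per sample and 50 ng of RNA behind each. In MMTV-Cre+ mice Cre recombinase is expressed from the mouse mammary tumour virus promoter, which is active in mammary epithelium and some other tissues. The labels number the samples of each group as biological replicates, and they give neither the founder line nor how many mice a sample came from. Values are log2 expression after the authors' normalization, and each difference is MMTV-Cre+ minus wild-type, over 2 arrays a group.

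Notch receptors sit in the cell membrane and are switched on by ligands of the Jagged and Delta families on a neighbouring cell. Proteases then release the inner part of the receptor, which enters the nucleus, joins the DNA-binding protein RBPJ and activates genes such as Hes1 and Hey1, which encode transcriptional repressors. Without the receptor fragment RBPJ recruits corepressors to the same genes. In the mouse mammary gland the pathway is known for its part in the choice between luminal and basal cell fates, and Notch4 was first found as Int3, a site where mouse mammary tumour virus inserts in mammary tumours.

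Markers of the labelled cell type were measured first. The 8 epithelial markers, among them Epcam and Krt8, averaged 8.42 and 8.35 on the MMTV-Cre+ arrays and 8.33 on each wild-type array. Transcripts of endothelial cells, fibroblasts and mural cells, the last being pericytes and vascular smooth muscle, were also present. The 10 endothelial markers averaged 4.85 and 5.23 on the MMTV-Cre+ arrays and 4.79 and 5.19 on the wild-type arrays. The 7 fibroblast markers averaged 7.18 and 7.71 on the MMTV-Cre+ arrays and 7.22 and 7.26 on the wild-type arrays. Of them 6 had a difference above 0, against 49% of all genes tested, with a median of 0.18. On both MMTV-Cre+ arrays 4 (Col1a1, Col1a2, Col3a1 and Dpt) were higher, against 16.7% of all genes tested. The 5 adipocyte markers averaged 3.99 and 4.41 on the MMTV-Cre+ arrays and 4.43 and 4.45 on the wild-type arrays. Of these only Fabp4 was bright, with a mean of 9.65, whereas Adipoq, Plin1, Cidec and Lep had means from 2.01 to 3.45. The 4 that were tested had a median difference of −0.25. None of these markers passed limma after adjustment, and their part in the members' values was not tested. Wild-type replicate 1 stood apart through lymphocyte transcripts. The 7 T and NK cell markers averaged 3.0 and 3.1 on the MMTV-Cre+ arrays, and 5.80 in replicate 1 and 3.11 in replicate 2 of wild-type. On these bulk samples a change in the number of cells of a type and a change in RNA per cell cannot be told apart. Differences without wild-type replicate 1 are given below for Notch1, Notch3, Notch4, Jag2, Rbpj and Hes1.

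No member of the pathway passed the limma test between the groups after adjustment over all 11668 genes tested (0 of 9 tested members, adjusted p from 0.964 to 0.999), and the same test called 0% of all genes. At an unadjusted p under 0.05 it took 1 member, Notch4, which was lower, against 4.32% of all genes, 2.13% higher and 2.19% lower in MMTV-Cre+. That unadjusted call of Notch4 did not hold with a variance trend in limma (unadjusted p = 0.0738, adjusted p = 0.981). It also ended without MMTV-Cre+ replicate 1, MMTV-Cre+ replicate 2 or wild-type replicate 1 (unadjusted p = 0.134, 0.0660 and 0.187, adjusted p from 0.827 to 0.999, limma). With the trend Rbpj and Hes1 had an unadjusted p under 0.05 instead (0.0252 and 0.0413, adjusted p = 0.981 for each, limma). The groups did not overlap in 4 of the 10 members. Notch4, Jag2 and Rbpj were lower and Hes1 was higher on both MMTV-Cre+ arrays. Of the tested members, 3 of 9 had groups that did not overlap, against 33.1% of all genes tested, so this count lay near the background. The genes tested were those whose mean over the arrays reached 2.84, the median over all probe sets, and Jag2 lay below it. The median log2 difference of the 10 members was −0.019, against −0.0039 over all genes tested, and the median size of their difference was 0.101, against 0.104.

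**Figure D1:**
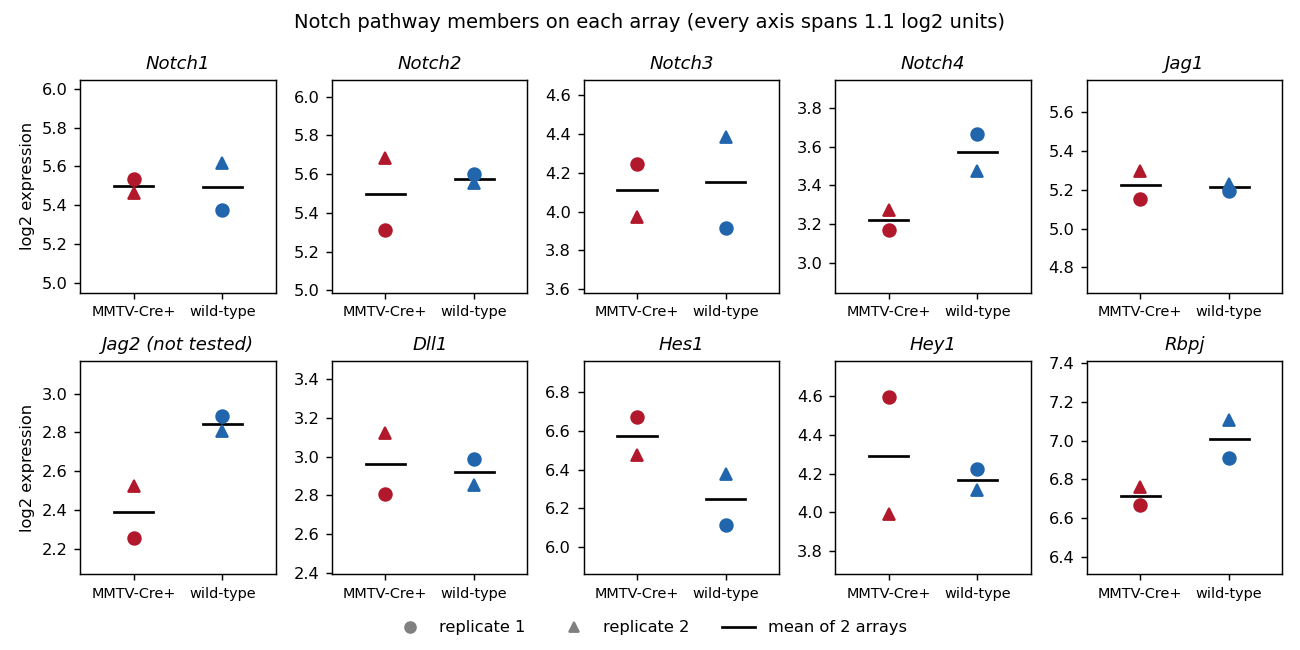
Log2 expression of the 10 members on each array, MMTV-Cre+ left of wild-type, with circles for replicate 1, triangles for replicate 2 and a bar for the mean of the 2 arrays. Every vertical axis spans the same width, and levels are not comparable between genes. Notch4, Jag2 and Rbpj lie lower and Hes1 lies higher on both MMTV-Cre+ arrays, while the groups of the other 6 members overlap.

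Among the receptors, only Notch4 had groups that did not overlap. It stood at 3.17 and 3.27 in MMTV-Cre+ samples and at 3.67 and 3.48 in wild-type samples. Both MMTV-Cre+ values lay below both wild-type values, and all 4 were within 1 log2 unit of the level set for dim genes. The log2 difference was −0.35 (95% interval −0.67 to −0.03, unadjusted p = 0.0373, adjusted p = 0.964, limma). Notch4 is known in endothelial cells as well as in the mammary gland. Of the 10 endothelial markers, 7 had a difference above 0 and 3 below, while 49% of all genes tested lay above 0. On both MMTV-Cre+ arrays 1 of the 10, Tie1, was lower, against 16.5% of all genes tested. The endothelial list stood highest in replicate 2 of each group. Notch4 was highest in wild-type replicate 1, where the lymphocyte transcripts were. Without that array the difference of Notch4 was −0.26. The part of endothelial cells or of lymphocytes in the values of Notch4 was not tested.

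The other receptors had overlapping groups. Notch1, which acts in luminal cells of the gland, stood at 5.54 and 5.46 in MMTV-Cre+ samples and at 5.38 and 5.62 in wild-type samples. Its log2 difference of 0.00 (−0.34 to 0.34) was the smallest of the 10 members, and both MMTV-Cre+ values lay between the wild-type values. Without wild-type replicate 1 it was −0.12. Notch2 stood at 5.31 and 5.68 in MMTV-Cre+ samples and at 5.60 and 5.55 in wild-type samples, a difference of −0.08 (−0.48 to 0.33). Its MMTV-Cre+ replicates were farther apart than the group means. Notch3, which is known in luminal progenitors and in vascular mural cells, stood at 4.25 and 3.97 in MMTV-Cre+ samples and at 3.92 and 4.39 in wild-type samples. Its difference was −0.04 (−0.55 to 0.47), and the wild-type replicates lay at either end of the range. Without wild-type replicate 1 it was −0.27. The luminal progenitor markers averaged 5.63 and 5.96 on the MMTV-Cre+ arrays and 5.90 and 5.88 on the wild-type arrays. The mural markers averaged 4.58 and 4.91 on the MMTV-Cre+ arrays and 4.71 and 4.74 on the wild-type arrays. The part of either list in the values of Notch3 was not tested.

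Of the ligands, only Jag2 had groups that did not overlap. It stood at 2.26 and 2.53 in MMTV-Cre+ samples and at 2.88 and 2.80 in wild-type samples. The log2 difference of −0.45 was the widest of the 10 members. Its mean over the 4 arrays was 2.62, below the 2.84 limit, so Jag2 had no test in the adjusted comparison. With no filter on dim genes it was still not called (unadjusted p = 0.0203, adjusted p = 0.963, limma). Without wild-type replicate 1 the difference was −0.41. Jag1, the Jagged ligand known from basal cells of the gland, varied least over the arrays. It stood at 5.15 and 5.30 in MMTV-Cre+ samples and at 5.20 and 5.23 in wild-type samples, a difference of 0.01 (−0.28 to 0.31). Dll1, a Delta family ligand, stood at 2.80 and 3.12 in MMTV-Cre+ samples and at 2.99 and 2.85 in wild-type samples. Its difference was 0.04 (−0.35 to 0.43), and its second, dimmer probe set, with a mean of 1.82, had a difference of −0.13.

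**Figure D2:**
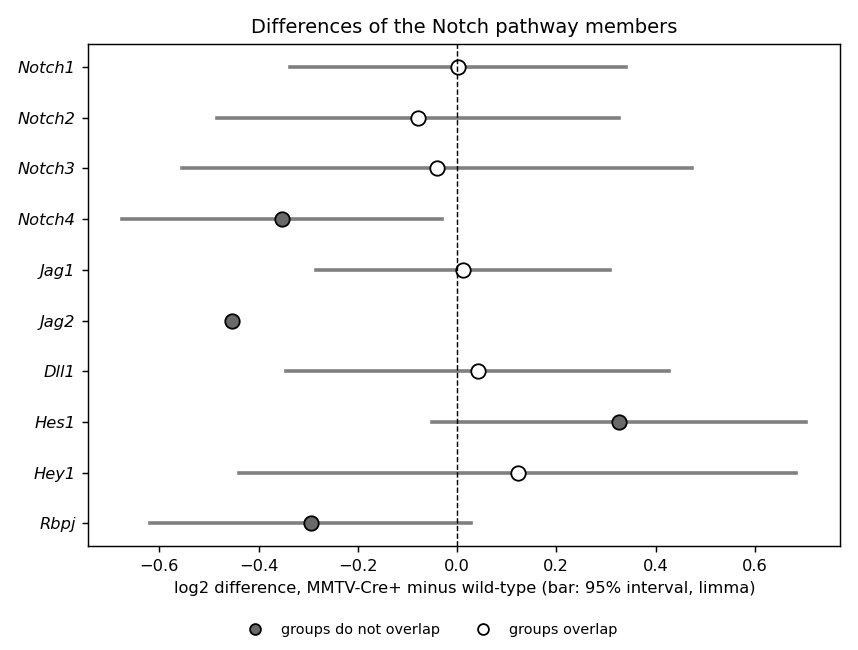
Log2 difference of each member, MMTV-Cre+ minus wild-type, with the 95% interval from limma as a bar and filled points where the groups do not overlap, so that both MMTV-Cre+ arrays are above or both are below the 2 wild-type arrays. The intervals of 8 of the 9 tested members include 0, that of Notch4 does not, and Jag2 was not tested.

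Rbpj, the gene of the transcription factor shared by all receptors, was lower on both MMTV-Cre+ arrays. It stood at 6.67 and 6.76 in MMTV-Cre+ samples and at 6.91 and 7.11 in wild-type samples. The groups did not overlap, and the nearest pair of values was MMTV-Cre+ replicate 2 and wild-type replicate 1. The log2 difference was −0.30 (−0.62 to 0.03, unadjusted p = 0.0655, adjusted p = 0.964, limma). Here wild-type replicate 2 was the higher one, so the order of the wild-type arrays was the reverse of that of Notch4 and Jag2. The difference was −0.39 without wild-type replicate 1 and −0.20 without wild-type replicate 2. A second probe set of Rbpj, far dimmer with a mean of 2.21, differed by −0.08, and averaging both probe sets gave −0.19.

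The 3 members that were lower together on both MMTV-Cre+ arrays are shown by the 250 bases before their start sites, since these are the stretches in which letters bound by RBPJ itself could be sought. The sequences are those of RefSeq on GRCm38.p6, written 5′ to 3′ on the strand of the gene. Capitals mark the core letters TGGGAA of the RBPJ binding motif on either strand, TTCCCA being the other strand. The region of Notch4 lies at chr17:34564045-34564294 on the plus strand, that of Jag2 at chr12:112929496-112929745 on the minus strand, and that of Rbpj, before the first of its 2 listed start sites, at chr5:53590096-53590345 on the plus strand.
Notch4: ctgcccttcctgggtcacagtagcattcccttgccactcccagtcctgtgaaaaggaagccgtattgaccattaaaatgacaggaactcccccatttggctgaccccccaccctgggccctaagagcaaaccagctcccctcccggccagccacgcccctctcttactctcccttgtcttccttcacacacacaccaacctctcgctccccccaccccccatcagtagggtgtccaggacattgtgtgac
Jag2: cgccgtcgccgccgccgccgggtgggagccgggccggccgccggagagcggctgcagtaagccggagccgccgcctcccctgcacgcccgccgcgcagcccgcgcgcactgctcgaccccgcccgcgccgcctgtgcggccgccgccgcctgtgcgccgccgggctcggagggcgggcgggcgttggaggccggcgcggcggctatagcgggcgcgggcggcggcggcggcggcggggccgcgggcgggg
Rbpj: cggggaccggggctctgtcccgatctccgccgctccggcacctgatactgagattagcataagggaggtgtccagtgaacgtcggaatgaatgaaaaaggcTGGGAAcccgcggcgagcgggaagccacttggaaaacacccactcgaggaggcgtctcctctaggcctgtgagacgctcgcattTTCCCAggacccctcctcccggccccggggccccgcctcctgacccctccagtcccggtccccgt
The core was found at 2 places before this start site of Rbpj, 149 and 65 bases before it, once on each strand. It was not found in the Notch4 or Jag2 stretch. Such a region was given for 8 members, all but Hes1 and Hey1. Among these 8 only Rbpj had the core in it. Counted by region, the core was in 2 of the members' 10, the 2 overlapping regions of Rbpj. The 2 regions share 1 of the matches, so they are not separate counts. Of all 32851 RefSeq promoter regions of this length 21.6% held the core. Neither the members' count by region nor that by gene, 1 of 8, lay above this share. The longer form GTGGGAA, which contains the core, was in none of the members' regions and in 5.42% of all regions. These matches describe letters only. The members' regions held 56.0% to 87.2% G and C, against a median of 52.4% over all regions.

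The target genes both had differences above 0. Hes1, the best known direct target of the pathway, stood at 6.67 and 6.47 in MMTV-Cre+ samples and at 6.12 and 6.38 in wild-type samples. Both MMTV-Cre+ values lay above both wild-type values, with a gap between MMTV-Cre+ replicate 2 and wild-type replicate 2 that was smaller than the gap within either group. The log2 difference was 0.33 (−0.05 to 0.70, unadjusted p = 0.0770, adjusted p = 0.964, limma). The lowest value was that of wild-type replicate 1, and without it the difference was 0.20. Whether the lymphocyte transcripts of that array play a part in it was not tested. Hes1 was higher on the arrays on which Rbpj was lower, and with 4 arrays no relation between them was tested.

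Hey1, a target known in vascular cells, had the widest spread within a group. It stood at 4.59 and 3.99 in MMTV-Cre+ samples and at 4.22 and 4.12 in wild-type samples. MMTV-Cre+ replicate 1 was the highest and MMTV-Cre+ replicate 2 the lowest of the 4 arrays, and the log2 difference was 0.12 (−0.44 to 0.68). It was −0.18 without MMTV-Cre+ replicate 1 and 0.42 without MMTV-Cre+ replicate 2. Of the 6 basal and myoepithelial markers, the contractile genes Acta2, Myh11 and Mylk, picked out after their values were seen, were also highest in MMTV-Cre+ replicate 1. Only Myh11 of these was lowest in MMTV-Cre+ replicate 2, as Hey1 was. Acta2 stood at 8.46 and 8.26 in MMTV-Cre+ samples and at 8.04 and 7.87 in wild-type samples. Its groups did not overlap, with a difference of 0.40 (unadjusted p = 0.0289, adjusted p = 0.964, limma). Myh11 stood at 7.54 and 7.11 in MMTV-Cre+ samples and at 7.12 and 7.14 in wild-type samples. The other basal markers ran the other way, since Krt14, Trp63 and Oxtr were lowest in MMTV-Cre+ replicate 1. The whole basal list averaged 5.41 and 5.51 on the MMTV-Cre+ arrays and 5.41 and 5.44 on the wild-type arrays, with 1 of its 6 markers, Oxtr, below the dim limit. Their part in the values of Hey1 was not tested.

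**Figure D3:**
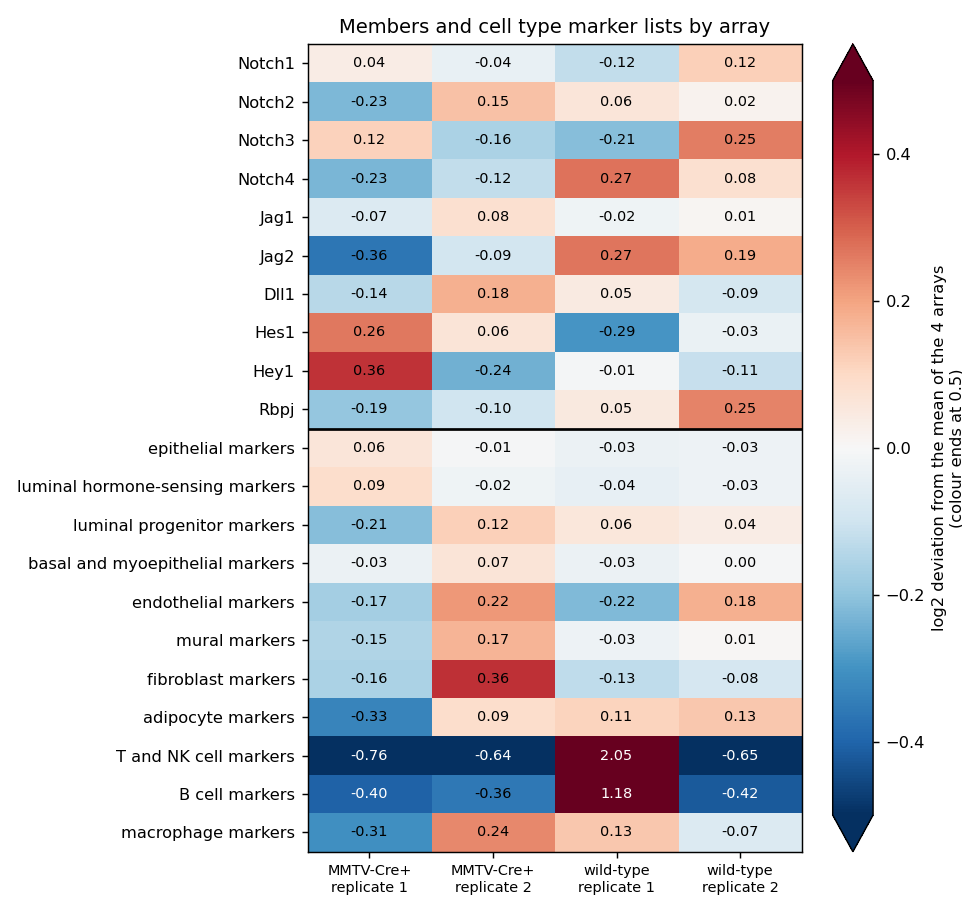
Deviation of each member and of each cell type marker list from its mean over the 4 arrays, in log2 units, with MMTV-Cre+ arrays in the left columns, red for above and blue for below. A list's value is the mean over its markers. The T and NK cell and B cell lists are high in wild-type replicate 1 alone, the endothelial list is high in replicate 2 of each group, and the epithelial list is nearly level.

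Hey1 and Hes1 had the widest range over the arrays among tested members, at 0.60 and 0.56. The profiles nearest to that of Hey1 over the 4 arrays, by Euclidean distance after centring each gene on its mean, were those of Myl9, Card6, A230108P19Rik, 2410004B18Rik and 5930403N24Rik, at distances from 0.030 to 0.067 log2 units. Those nearest to Hes1 were Rgl2, Kctd20, Slc23a3, Ogfod2 and Mfap4, at 0.038 to 0.045. Each is the nearest of 11667 genes over only 4 arrays, so such neighbours describe these arrays alone.

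The rest of the pathway was followed in 57 further genes in 8 lists by role. Of these 44 were tested, 10 lay below the dim limit and 3 were not analysed here. By limma 0 of the 44 passed after adjustment over all genes. At an unadjusted p under 0.05 it took 1 of the 44, against 4.32% of all genes tested. Their median log2 difference was −0.021, with 18 above 0 and 26 below, while 49% of all genes tested lay above 0. The groups did not overlap in 15, against 33.1% of all genes tested. Of the 15, 7 were higher and 8 lower in MMTV-Cre+ (16.7% and 16.5% of all genes tested).

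The 1 gene with an unadjusted p under 0.05 was Rfng, of the Fringe enzymes that add sugars to Notch receptors and so set their response to Delta and Jagged ligands. Rfng stood at 3.39 and 3.50 in MMTV-Cre+ samples and at 3.12 and 3.09 in wild-type samples, a log2 difference of 0.33 (0.05 to 0.62, adjusted p = 0.964, limma). Another Fringe, Mfng, ran the other way. It stood at 3.33 and 3.04 in MMTV-Cre+ samples and at 3.37 and 3.53 in wild-type samples, a difference of −0.26 (−0.64 to 0.12). Pofut1, whose enzyme adds fucose to the receptor, differed by −0.23 with overlapping groups. The list of 6 such enzymes had a median difference of −0.022, with 2 above 0 and 4 below.

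Among other ligands only Dll4, a Delta ligand of endothelial cells, was bright enough to test. It stood at 3.18 and 3.31 in MMTV-Cre+ samples and at 2.92 and 3.12 in wild-type samples, a difference of 0.22 (−0.11 to 0.55). Its groups did not overlap. Dll3, Dlk1, Dlk2 and Dner were dim, with means of 1.99 to 2.53. Other target genes showed little difference. Heyl, Hey2 and Nrarp differed by −0.03, 0.05 and −0.02 with overlapping groups, and Hes2, Hes5 and Hes7 were dim. Of the ubiquitin ligases that act on ligands, Mib1 and Mib2 differed by −0.09 and 0.16, again with overlap.

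Among the proteases that cut the receptor, Psen2, a catalytic subunit gene of gamma-secretase, had the smallest p. It stood at 2.73 and 2.75 in MMTV-Cre+ samples and at 3.02 and 2.98 in wild-type samples. The difference of −0.26 (−0.54 to 0.01, unadjusted p = 0.0561, limma) came with close replicates and levels at the dim limit. Aph1a, another subunit gene, differed by 0.18, and Adam10, whose protease makes the first cut, by −0.07. Of the 7 protease genes tested 5 had a difference above 0 and 2 below, with a median of 0.053. Coactivators that join RBPJ had differences above 0 in 2 of 8 genes, against 49% of all genes tested, with a median of −0.057. The acetyltransferase genes Kat2a and Kat2b differed by 0.28 and −0.17 in opposite directions, each with groups that did not overlap, and Maml1, of the Mastermind family, by −0.13.

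Corepressor genes had differences above 0 in 2 of 10, against 49% of all genes tested, with a median of −0.033, and 0 passed. Tle4 stood at 5.27 and 5.10 in MMTV-Cre+ samples and at 4.99 and 4.82 in wild-type samples, a difference of 0.28 (−0.05 to 0.61). Tle3 and Tle1 differed by −0.18 and −0.27, the groups of Tle1 overlapping. Of the genes for receptor turnover and inhibition, Numb, whose protein restrains Notch receptors, stood at 6.08 and 6.01 in MMTV-Cre+ samples and at 6.20 and 6.24 in wild-type samples. Its difference was −0.17 (−0.45 to 0.10). The ubiquitin ligase genes Itch and Dtx1 differed by 0.14 and −0.18. Of the 7 genes tested in this list 4 had a difference above 0 and 3 below, with a median of 0.020.

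**Figure D4:**
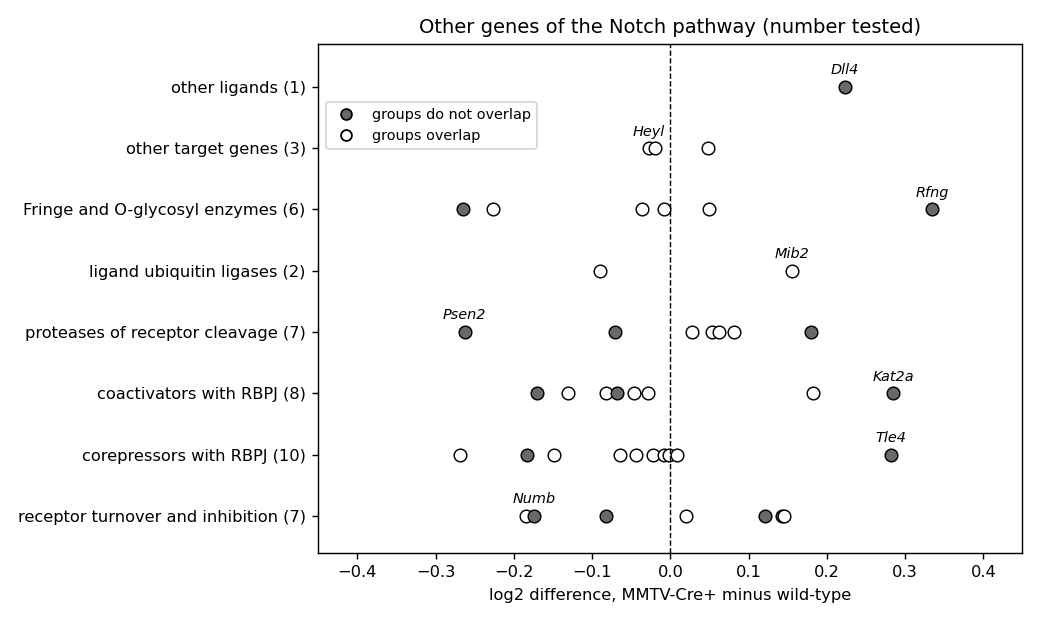
Log2 difference, MMTV-Cre+ minus wild-type, of each tested gene in the 8 further lists of the pathway, with filled points where the groups do not overlap and the gene of smallest p in each list named. The differences of the 44 genes run from −0.27 to 0.33 and lie on both sides of 0 in 7 of the 8 lists; the eighth holds Dll4 alone.

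With 2 samples against 2, the smallest two-sided exact permutation p for a single gene is 0.333. The half-width of the members' 95% intervals was 0.30 to 0.56 log2 units without adjustment for the number of genes, and the adjusted test called no gene (smallest unadjusted p of all genes 0.000726, limma).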

How the data were processed

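Per the submitters' processing notes the authors used oligo and RMA, and the deposited table holds 1 log2 value for each probe set and array. The log2 scale was inferred from the values, which were all positive with array medians of 2.83 to 2.86. Tool versions are not stated. RMA equalises the distributions of the arrays and so hides a change common to most genes.

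Of 41345 probe sets, the platform annotation gave 23521 one symbol, 1814 several and 16010 none. The test was that of limma 3.58.1, run in R 4.3.3 (lmFit, eBayes without a trend, two-sided, Benjamini-Hochberg at 0.05 over all genes tested). The procedure was tested on simulated data with differences larger than that of any member, so sizes like the members' were not covered. The number of arrays limits the precision. All 10 members matched the RefSeq gene table by Entrez identifier. The members and lists were chosen with earlier results of these data known, so no list was tested. Of each further list up to 3 genes were named, by smallest p. Where the text names other marker genes, they were chosen after their values were seen. Alternatives were other filters, probe set rules, scalings, variance models, thresholds, a replicate block and leaving out each array. Correlations between arrays over the genes tested were 0.977 to 0.987, and no arrays were duplicates.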

Additional observations from a re-analysis of the deposited data

How the results depend on the processing

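In the 9 alternatives that kept all 4 arrays and an adjusted p, 0 genes and 0 members passed the limma threshold. Of 90 member values 89 kept their direction. The exception was Dll1, which differed by −0.043 when its probe sets were averaged. Most of these values could not change, so this count says little. Filters, variance models, the replicate block and testing each probe set leave a member's difference as it is. Only rescaling the arrays or averaging probe sets could move it. At an unadjusted p under 0.05, 504 genes and 1 member passed. The labels do not say whether a replicate number marks a pair. Same-numbered deviations correlated at −0.04 across genes, which does not settle it with 2 samples a group. With the replicate block 0 genes passed and Notch4 had an unadjusted p = 0.0638 (adjusted p = 0.975, limma). Leaving out each array in turn gave 0 to 13 genes, the 13 without wild-type replicate 2, and 0 members. The median member difference then ran from −0.106 without MMTV-Cre+ replicate 1 to 0.0012 without wild-type replicate 2. Differences ran from −0.45 to −0.26 for Notch4, −0.59 to −0.32 for Jag2, −0.39 to −0.20 for Rbpj and 0.20 to 0.46 for Hes1. They crossed 0 for Notch1 (−0.12 to 0.12), Notch2 (−0.26 to 0.11), Notch3 (−0.27 to 0.19), Jag1 (−0.061 to 0.084), Dll1 (−0.12 to 0.20) and Hey1 (−0.18 to 0.42). Groups then did not overlap in 6 to 8 members, against 63.7% to 69.6% of all genes, since a lone array separates more easily. These counts were added after seeing the data.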
